A study of Mus musculus with 6 samples.

Results

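The genes described here encode 8 receptor chains for myeloid growth factors: Csf1r for M-CSF, Csf2ra and Csf2rb for GM-CSF, Csf2rb2 and Il3ra for IL-3, Csf3r for G-CSF, and Il6ra and Il6st for IL-6. They were taken by symbol from a count table of 21606 genes, which held all 8, and all 8 were among the 8460 genes with enough counts to be tested. RNA came from bone marrow cells with high activity of aldehyde dehydrogenases, enzymes that oxidise aldehydes, a property used to sort a marrow fraction rich in progenitors. The cells were from wild-type mice of the inbred strain C57BL/6, 3 libraries from females and 3 from males, and the sexes shared strain, genotype and sort. Ages are not given in the sources used here. No label ties a replicate to an animal of its own, so the spread behind each p-value is that of these 6 libraries and may be technical.

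M-CSF, G-CSF, GM-CSF, IL-3 and IL-6 are secreted proteins that keep blood cell progenitors alive, dividing and maturing towards monocytes and granulocytes. Csf1r is a receptor tyrosine kinase, whereas the others are cytokine receptors without an enzyme of their own that pass the signal to JAK kinases and STAT factors. The GM-CSF, IL-3 and IL-5 receptors each pair a private alpha chain with the shared beta chain encoded by Csf2rb, mice carry a second beta chain gene, Csf2rb2, whose product serves IL-3 only, and the IL-6 receptor pairs Il6ra with gp130, the product of Il6st, which also serves other cytokines. PU.1, the product of Spi1, and C/EBP alpha are known activators of several of these receptor genes in myeloid cells.

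All coordinates are GRCm38. Csf2ra lies on chromosome 19 (61223957 to 61228429), Csf3r on 4 (126024550 to 126044440), Il3ra on 14 (14346275 to 14356011), Il6ra on 3 (89864059 to 89913196) and Il6st on 13 (112464070 to 112510086). Csf2rb (78325752 to 78353847) and Csf2rb2 (78282507 to 78305721) are neighbours on chromosome 15 on opposite strands. As the library method reads the 3′ ends of transcripts, the windows of 81 bases, the length of the insert reads, were compared between the longest annotated transcripts of both beta chain genes. In the last 500 bases, 0 of 420 windows of either gene occurred in a transcript of the other, with up to 2 mismatches allowed. Over the whole transcripts, 9.54% of the Csf2rb windows and 9.87% of the Csf2rb2 windows occurred exactly in the other gene, and 30.3% and 31.8% with up to 2 mismatches, so reads from further inside could be shared. Genes overlapping Csf1r (Hmgxb3) and Il6ra (Gm42809) had 5 and 2 counts over the 6 libraries, against 1413 and 911 for the receptors.

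The upstream sequences of these genes are shown because PU.1 is a known activator shared by several of them, and its gene Spi1 was well measured here, with 1992 counts. Promoter windows of 300 bases around the start of transcription came from RefSeq (GRCm38.p6) and were given for 6 of the 8 genes. The letters AGGAAG, the core of a PU.1 site and of other ETS factors, occurred on either strand in 5 of the 6 windows, all but that of Il6st, and in 35.4% of the 32851 windows of the same length in that table. A match describes letters and shows no binding. In all, 6 motifs were searched, each on both strands, and the windows printed were chosen after the matches were seen, as those with AGGAAG upstream of the RefSeq start, 1 per gene. The starts of the gene models given above differ from these: the bases printed for Csf3r and Il3ra lie inside those models and those for Csf2ra span the model's end. The lines below give 30 bases each, 5′ to 3′ on the strand of the gene, with AGGAAG or its reverse complement in capitals.
Csf3r (chromosome 4, 126024562 to 126024591, plus strand): ctcCTTCCTgagAGGAAGgggctgtctatg
Csf2ra (chromosome 19, 61228419 to 61228448, minus strand): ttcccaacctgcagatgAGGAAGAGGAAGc
Il3ra (chromosome 14, 14346343 to 14346372, plus strand): ccccactatctcAGGAAGttgctcaatctc
Il6ra (chromosome 3, 89913353 to 89913382, minus strand): tggcgcggctgcAGGAAGtaaccccctccg
Csf2rb2 (chromosome 15, 78305872 to 78305901, minus strand): cctctgtgtctgCTTCCTccagagaagtca
The Csf3r window held 4 matches in all, on both strands, and the Csf2ra window held 2 in tandem just before the RefSeq start. GAGGAAGT, a longer PU.1 form that contains AGGAAG, occurred in the window of Csf2rb2 alone, after the RefSeq start (3.2% of all windows). TTGCNNAA, the core letters of a C/EBP site, occurred in the window of Il3ra alone, directly after its AGGAAG (10.8%), and TTGCGCAA, a palindromic form of it, in none of the 6 (0.183%). TTCNNNGAA, the spacing of a STAT site, occurred in the window of Csf2rb2 alone (8.3%), and TGTGGT, the core of a RUNX site, in none of the 6 (16.8%).

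Total counts per library ran from 1199551 to 1475224 in females and from 679724 to 880074 in males, with a female mean 1.65 times the male mean. Every male library was thus shallower than every female one. The receptors together held 342 to 1253 counts per library. The libraries did not all stand close to their group. Male replicate 2 had the lowest total and lay far from the rest on the first principal component, and male replicate 1 correlated better with the female libraries (mean r of log2 CPM 0.965) than with the other males (0.956). Markers of immature granulocyte and monocyte cells were abundant, among them Mpo, the myeloperoxidase of primary granules, at 7639 ± 224 (SD, n = 3) CPM in females and 6332 ± 284 in males, where CPM are counts per 1e+06 counts after TMM scaling. The late neutrophil gene Ltf had 1 count and the T cell gene Cd3d had 1 count over all 6 libraries. Nkg7, from the same T and NK cell list as Cd3d, had 905 counts. Summed CPM of 10 erythroid and megakaryocyte markers ran from 114 to 140.1 in females and from 316 to 472 in males, those of 8 lung epithelial markers from 162 to 229 and from 249 to 522, those of 7 plasma cell markers from 11480 to 13438 and from 9260 to 10849, and those of the neutrophil list from 14307 to 15044 and from 12749 to 13720. The 472 and 522 were both of male replicate 2. Male replicates 1 and 3 had 328 and 316 for the erythroid list and 268 and 249 for the lung list. Male replicate 2 also had the highest sum of stroma markers, 341 CPM, against 186 to 236 in the other libraries. In all, 7 of 11 marker lists did not overlap between the sexes, 5 with the males above. The other 3 were those of mast cells, basophils and eosinophils (124 to 163 and 168 to 239), of the B lineage (147 to 167 and 170 to 225) and of T and NK cells (129 to 147 and 153 to 172). Of single tested genes, 7.57% had all males above all females and 8.03% the reverse. No such share was computed for sums, which rest mostly on their most abundant genes. Nkg7 alone had mean CPM of 134 in females and 161 in males within the T and NK cell sums. Single markers past the test were Car1, Car2, Pf4, Cpa3 and Dntt, higher in males, and Cd74, H2-Aa and Ms4a1, lower in males. The libraries shared a sequencing pool with 10 lung samples not analysed here. The part of these markers in the values below was not tested.

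The question of the rank order was which receptor RNAs these cells carried most of. Csf1r was the highest of the 8 in each of the 6 libraries, and Csf2rb2 the lowest in each. On the CPM scale the order of mean levels over the 6 libraries was Csf1r at 219, Il6ra at 136, Csf2ra at 112, Csf2rb at 101, Il6st at 83.0, Csf3r at 50.5, Il3ra at 41.8 and Csf2rb2 at 12.5 CPM, and it was the same in the female and the male means. Among all tested genes, the mean level of Csf1r stood at percentile 91.2, that of Csf3r at 55.6 and that of Csf2rb2 at 7.53. Csf3r and Il3ra also held the same place in every library, while Il6ra, Csf2ra, Csf2rb and Il6st exchanged places between the second and the fifth.

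**Figure D1:**
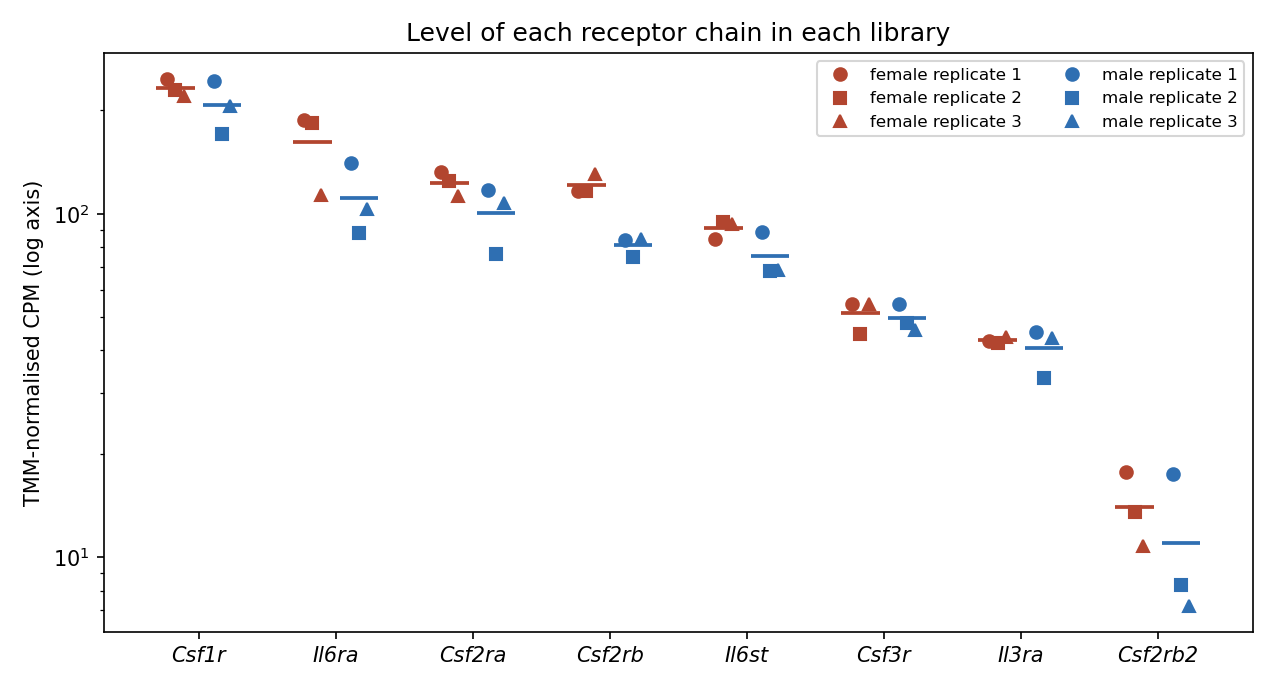
TMM-normalised CPM (log axis) of each receptor chain in each library, ordered by mean level; points are libraries (marker shape gives the replicate), and lines are means of 3 libraries per sex. Csf1r is highest and Csf2rb2 lowest in all 6 libraries, and in Csf2rb alone the 3 female points (117 to 131 CPM) lie above the 3 male ones (74.8 to 84.3 CPM).

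Neighbours in this order were compared by the log2 ratio of their CPM within each library. The pairs and their direction came from the mean levels of these same libraries, and the p-values do not allow for that choice. With 6 libraries the two-sided exact sign-flip permutation test cannot go below p = 0.0313, and 4 of the 7 neighbouring pairs reached it, with the same order in 6 of 6 libraries. These were Csf1r over Il6ra (1.66-fold), Il6st over Csf3r (1.64-fold), Csf3r over Il3ra (1.21-fold) and Il3ra over Csf2rb2 (3.52-fold). Adjusted over the 7 pairs (Benjamini-Hochberg), none passed 0.05; these 4 had 0.0547. Il6ra over Csf2ra (1.19-fold, exact p = 0.0938), Csf2ra over Csf2rb (1.11-fold, exact p = 0.219) and Csf2rb over Il6st (1.20-fold, exact p = 0.0625) each held in 5 of 6 libraries. The test settled neither the order of these neighbours nor that their levels were equal.

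Because reads from 3′ ends are not expected to grow in number with transcript length, CPM were not divided by length above. Divided by the merged exon length of each gene, the order changed. Csf2ra had 38.9 CPM per kb and Csf1r 38.0, and their order lay within the spread between libraries (mean log2 ratio 0.02 ± 0.11, SD over 6 libraries, exact sign-flip permutation p = 0.594). Il6ra, Il3ra, Csf3r and Csf2rb then lay together between 13.9 and 15.8 CPM per kb, Il6st at 7.48 and Csf2rb2 last at 2.64. Csf2rb2 was last on both scales. Il6ra followed Csf2ra and Csf1r per kb by its mean, but lay above Il3ra in only 3 of 6 libraries (exact sign-flip permutation p = 0.531).

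The comparison of male with female libraries asks whether the receptor RNAs differ by sex. None of the 8 passed edgeR's quasi-likelihood test at an adjusted p (Benjamini-Hochberg, all tested genes) of 0.05, a level at which 0.579% of tested genes were called (0.426% higher and 0.154% lower in males). All 8 fitted fold changes lay below 0, that is, on the lower side in males, against 50.7% of all tested genes. Their median was -0.27 on the log2 scale, against 0.00 over all tested genes. With single libraries left out it ran from -0.40 (without male replicate 1) to -0.15 (without male replicate 2). Pearson's r of log2 CPM between pairs of receptors ran from 0.158 to 0.961 over the 6 libraries, so the 8 are not separate observations. At an unadjusted p of 0.05, 2 of the 8, Csf2rb and Il6ra, lay lower in males and 0 higher, where 4.5% and 6.83% of all tested genes did. DESeq2 and limma-voom also called 0 of 8 after adjustment and 2 of 8 without it. Below that unadjusted p lay 2.25% of 21606 unfiltered genes by DESeq2 and 11% of 8460 filtered genes by limma-voom. As all 8 receptors passed the filter, the share of unfiltered genes is not a like background for them. In bulk RNA, fewer cells carrying a receptor and less RNA per cell cannot be told apart.

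**Figure D2:**
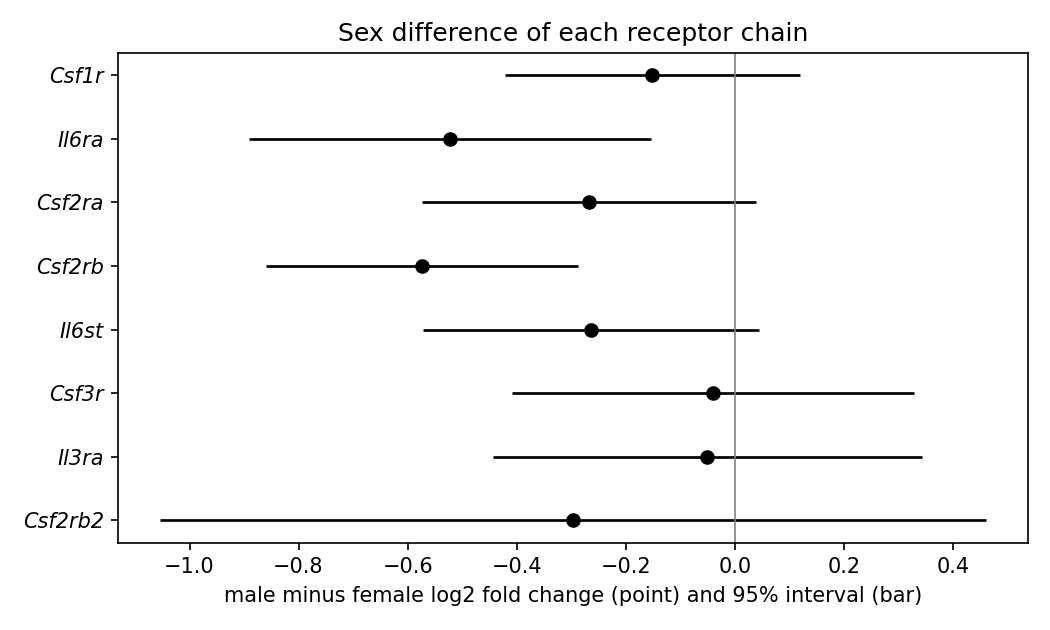
Male minus female log2 fold change of each receptor chain (points) with its unadjusted 95% interval (bars) from the quasi-likelihood fit. The intervals of Csf2rb and Il6ra lie below 0 and those of the other 6 include 0.

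Csf2rb, the beta chain shared by the GM-CSF, IL-3 and IL-5 receptors, had the smallest p of the 8. It had 117, 117 and 131 CPM in female replicates 1 to 3 and 83.9, 74.8 and 84.3 CPM in the male ones, from 145, 172 and 170 counts and from 72, 45 and 70. Every female library lay above every male one, the only receptor of the 8 for which the sexes did not overlap; over all tested genes, 8.03% had all female libraries above all male ones and 7.57% the reverse. The means were 121 ± 8.20 (SD, n = 3) and 81.0 ± 5.36 CPM. The log2 fold change of -0.57 ± 0.14 (SE; 95% interval -0.86 to -0.29) had an adjusted p = 0.0572 in edgeR. It ranked 57 among all tested genes by p, just outside the 49 that passed. The fold change kept its sign under all 14 alternatives, from -0.66 to -0.52, while the adjusted p ran from 0.0203 without male replicate 1 to 0.366 by DESeq2. It was below 0.05 also with library-size scaling (0.0302), upper-quartile scaling (0.0481) and no low-count filter (0.0238).

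Csf2ra, the private alpha chain of the GM-CSF receptor, had 132, 125 and 112 CPM in females and 118, 76.5 and 107 CPM in males. Male replicate 1 lay within the female range and male replicate 2 stood apart below all others. Its log2 fold change was -0.27 ± 0.15 (95% interval -0.57 to 0.04; adjusted p = 0.518 in edgeR). Without male replicate 2 it was -0.13.

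The second beta chain gene, Csf2rb2, was counted 22, 20 and 14 times in females and 15, 5 and 6 times in males. These gave 17.7, 13.5 and 10.8 CPM in females and 17.5, 8.32 and 7.23 CPM in males, and the sexes overlapped. The log2 fold change of -0.30 had a 95% interval from -1.05 to 0.46. No difference was detected, and at this depth smaller ones in either direction within that interval could be missed. With single libraries left out it ran from -0.85 (without male replicate 1) to -0.03 (without male replicate 3). Il3ra, the alpha chain that binds IL-3, had 42.7, 42.0 and 43.9 CPM in females and 45.4, 33.3 and 43.4 CPM in males. Only male replicate 2 lay away from the other 5 libraries, and the log2 fold change of -0.05 (95% interval -0.44 to 0.34) became 0.053 without it.

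Csf3r, the receptor of G-CSF, the main growth factor of neutrophil formation, had 54.8, 44.7 and 54.6 CPM in females and 54.7, 48.2 and 45.8 CPM in males. The lowest library was a female one, and the log2 fold change was -0.04 ± 0.18 (95% interval -0.41 to 0.33), with values from -0.13 to 0.022 when single libraries were left out. Csf1r (chromosome 18, 61100598 to 61132149) encodes the M-CSF receptor, which drives the monocyte and macrophage lineage. It had 246, 229 and 220.1 CPM in females and 243, 171 and 206 CPM in males. Male replicate 1 lay among the females and the other 2 males lay below them. Its log2 fold change was -0.15 ± 0.13 (95% interval -0.42 to 0.12; adjusted p = 0.721 in edgeR).

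Il6ra, the chain that binds IL-6, varied most in females. It had 188, 184 and 113 CPM in female replicates 1 to 3 and 141, 88.1 and 104 CPM in the male ones. Female replicate 3 lay within the male range, so the sexes overlapped. The means were 161 ± 41.9 (SD, n = 3) and 111 ± 27.1 CPM. The log2 fold change was -0.52 ± 0.18 (95% interval -0.89 to -0.15), with an adjusted p = 0.235 in edgeR. The adjusted p was 0.0138 without male replicate 1 (log2 fold change -0.74) and 0.0263 with no low-count filter, and up to 0.691 under the other alternatives. Il6st, the signalling chain gp130, had 84.6, 94.8 and 93.1 CPM in females and 88.5, 68.2 and 68.7 CPM in males. Male replicate 1 lay within the female range and the other 2 males below it, with a log2 fold change of -0.26 ± 0.15 (95% interval -0.57 to 0.04).

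**Figure D3:**
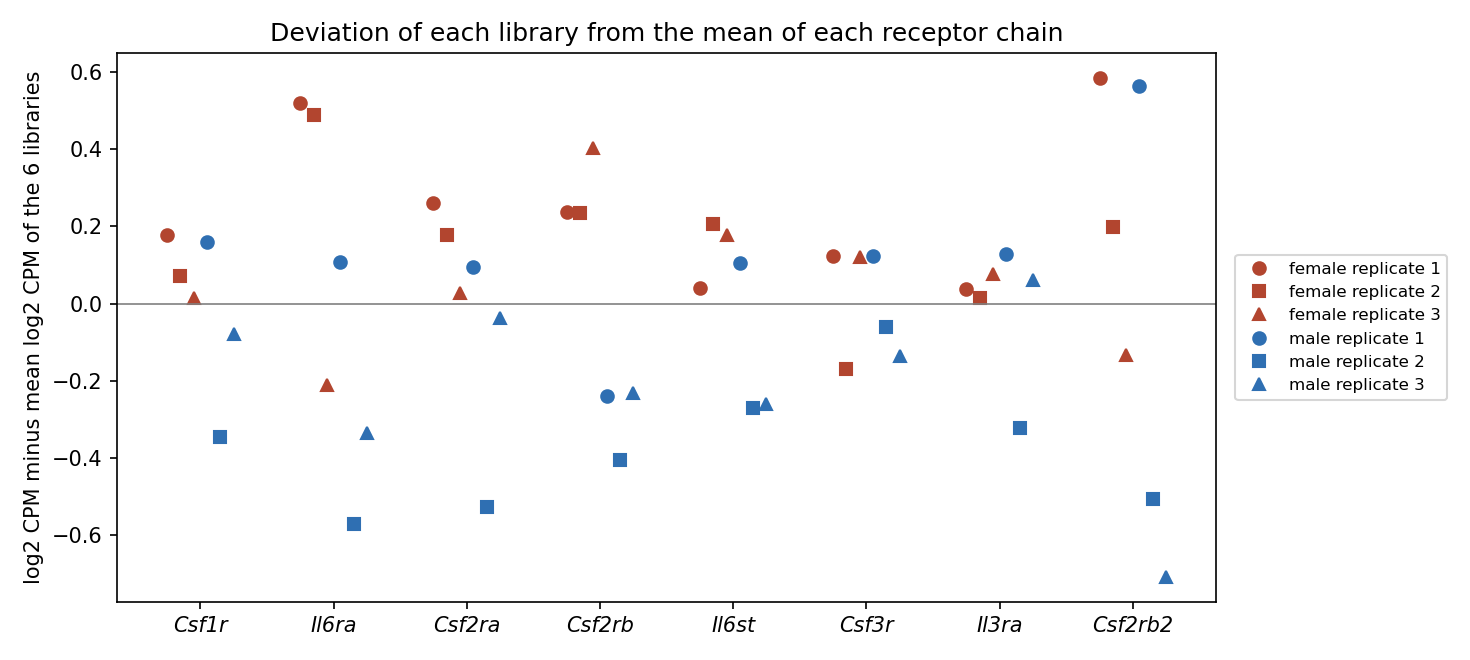
Log2 CPM of each library minus the mean log2 CPM of the 6 libraries, per receptor chain; colour gives the sex and marker shape the replicate. Male replicate 1 is the highest male library in 7 of the 8 receptors and male replicate 2 the lowest of all 6 libraries in 6 of them.

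The coefficient of variation lay above that of counting for 4 of the 8 receptors in females and 5 of the 8 in males. With 3 libraries per sex it can lie above by counting alone, so these numbers of receptors do not show an excess. The share over all tested genes was not computed. The coefficient of variation of Csf1r over the 3 female libraries was 5.78%, where the counts alone would give 5.68%, and that of Csf2ra was 8.09% against 7.79%. Il6ra lay furthest above counting in females, with 25.9% against 6.79%. In males, Csf1r, Csf2ra and Il6ra had 17.4%, 21.3% and 24.5%, against 7.88%, 11.3% and 10.7% from the counts, whereas Csf2rb, Csf3r and Il3ra lay below counting with 6.61%, 9.33% and 16.0%, against 12.7%, 16.2% and 17.8%. Male replicate 1 was the highest male library for 7 of the 8 receptors and male replicate 2 the lowest of all libraries for 6. Summed over the 8 receptors, the females had 883, 849 and 779 CPM and the males 792, 569 and 666 CPM, so male replicate 1 lay within the female range.

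Ratios between chains within a library do not depend on its scaling. In all, 5 pairings of chains were compared, and 3 against 3 libraries cannot give an exact permutation p below 0.1. Il3ra to Csf2rb was 0.366, 0.360 and 0.335 in females and 0.542, 0.444 and 0.514 in males. All male ratios lay above all female ones (male minus female 0.50 on the log2 scale, two-sided exact permutation p = 0.1, the smallest possible, and 0.5 when adjusted over the 5 ratios). The log2 fold change of Il3ra itself was -0.05 and that of Csf2rb -0.57, so this ratio restates the Csf2rb difference given above. Ratios with Csf2rb as the denominator are not separate observations. Csf2ra to Csf2rb was close to 1, from 0.859 to 1.13 in females and from 1.02 to 1.40 in males, and overlapped. Il6ra exceeded Il6st in every library, by 1.21 to 2.22 times in females and 1.29 to 1.59 times in males. Csf1r exceeded Csf3r by 4.03 to 5.12 times in females and 3.55 to 4.5 times in males. Csf2rb2 held between 7.61% (exact 95% binomial interval 4.22 to 12.4) and 13.2% (8.44 to 19.3) of the counts of both beta chain genes in female libraries, and between 7.89% (2.95 to 16.4) and 17.2% (9.98 to 26.8) in male ones. The exact p of the last 4 ratios ran from 0.3 to 0.8.

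**Figure D4:**
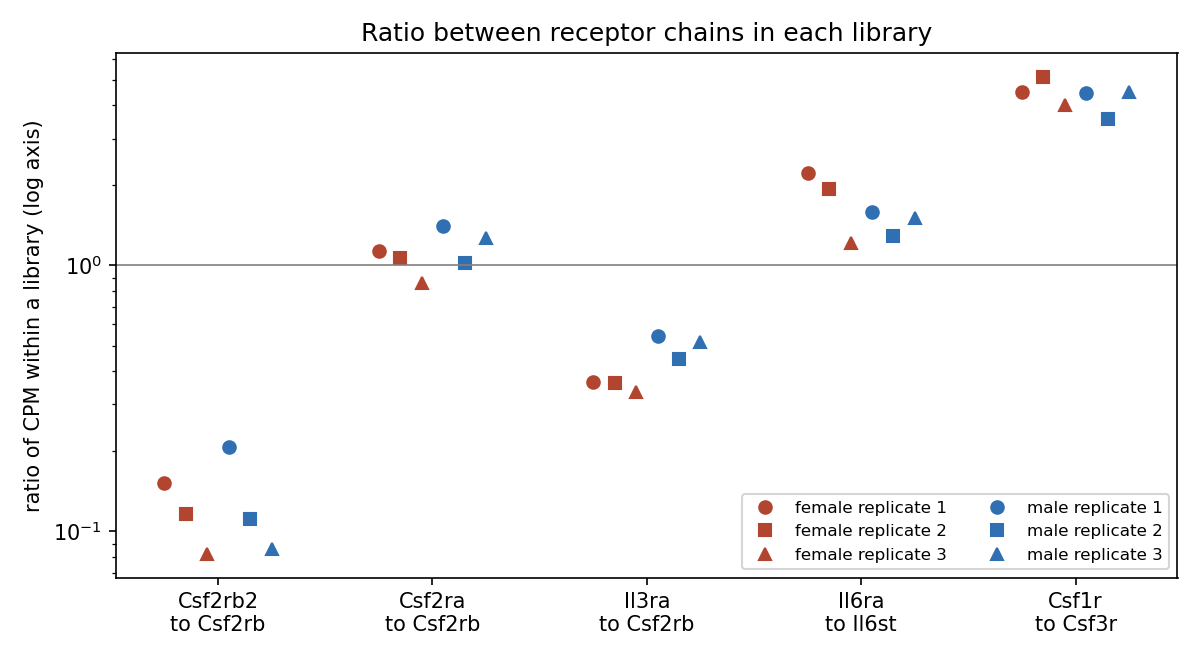
Ratio of CPM between receptor chains within each library (log axis); colour gives the sex and marker shape the replicate, and the grey line marks equal levels. The male points of Il3ra to Csf2rb (0.444 to 0.542) lie above the female ones (0.335 to 0.366), and the other 4 ratios overlap between the sexes.

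The ligand genes had few counts. Of 10 of them, 4 were among the 21606 genes counted, and Il34, Csf2, Csf3, Il3, Il5 and Il11 were not. Only Osm was tested, the gene of oncostatin M, a cytokine that signals through gp130. Osm had 13.9 ± 3.04 (SD, n = 3) CPM in females and 16.1 ± 4.13 in males. Csf1 had 37 counts over the 6 libraries, and Il6 and Lif had 3 counts each. Among 20 other cytokine receptors, 12 were tested and none passed, with 6 fold changes below 0 and a median of -0.03. Ifngr1 and Ifnar2, chains of the interferon receptors, were the most abundant, with 177 ± 28.1 and 130.2 ± 6.28 CPM in females and 149 ± 16.2 and 98.7 ± 10.8 in males. Kit and Flt3, the progenitor receptors of stem cell factor and FLT3 ligand, had 72.9 ± 9.64 and 75.5 ± 3.69 CPM in females and 67.1 ± 28.7 and 97.9 ± 6.83 in males.

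Of the 11 kinases and STAT factors that carry the signal, all were tested and none passed; 8 fold changes lay below 0 and the median was -0.10. Jak1, the kinase used with gp130, had 86.4 ± 6.98 CPM in females and 93.7 ± 19.1 in males, and Stat3, its main partner there, 76.7 ± 6.14 and 71.7 ± 6.61. Jak2, the kinase used with the shared beta chain, had 43.2 ± 2.51 and 39.3 ± 10.5 CPM. None of 17 tested adaptors and downstream kinases passed (12 below 0, median -0.11), with Akt1, a survival kinase, at 236 ± 18.3 and 231 ± 35.2 CPM and Grb2, an adaptor, at 212 ± 27.8 and 194 ± 53.8. None of 9 tested negative regulators passed (6 below 0, median -0.20). Ptpn6, the phosphatase SHP-1, had 239 ± 44.7 and 236 ± 20.5 CPM and Inpp5d, the lipid phosphatase SHIP, 100.04 ± 0.902 and 85.6 ± 14.7.

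Target genes of these receptors had fold changes on both sides of 0, with 4 of 10 below 0, a median of 0.11 and none past the test. Ccnd2, a D-type cyclin, had 266 ± 20.3 CPM in females and 265 ± 27.2 in males, and Pim1, a kinase induced by STAT5, 237 ± 12.6 and 278 ± 58.9. Socs3 and Cish, feedback inhibitors that rise on cytokine signalling, had 12 and 9 counts over the 6 libraries and were not tested. Of the 11 transcription factors listed as activators or other regulators of receptor genes, none passed (7 below 0, median -0.04). Irf8, a factor of monocyte and dendritic fate, had 1114 ± 68.6 and 1066 ± 67.2 CPM and Myb, a progenitor factor, 344 ± 19.1 and 306 ± 46.1. Spi1, which encodes PU.1, had 320 ± 8.44 and 305 ± 35.8 CPM. Neither tested sheddase, Adam10 with 136 ± 16.2 and 144 ± 17.1 CPM or Adam17 with 49.0 ± 3.17 and 37.1 ± 15.6, passed; these enzymes cut receptors such as Il6ra from the surface.

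**Figure D5:**
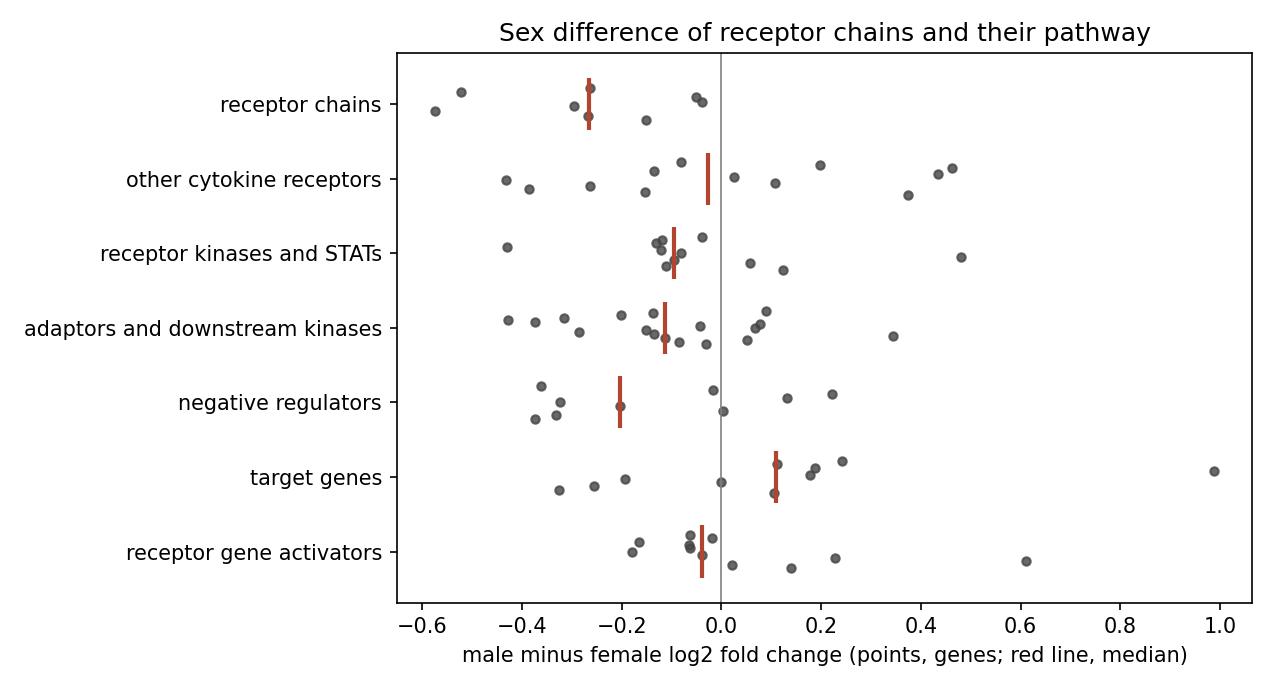
Male minus female log2 fold change of each tested gene (points) of the receptor chains and of 6 lists of their pathway, with the median of each list (red line). All 8 receptor points lie below 0 (median -0.27), and the medians of the other lists lie between -0.20 and 0.11.

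The genes whose levels over the 6 libraries were most like each receptor were sought among 129 other tested genes of all lists, by Pearson's r of log2 CPM; libraries share depth and scaling, so these values are descriptions. Csf1r was most like Bcl3 (r = 0.976) and Spi1 (0.968), and Il3ra most like the same pair (0.925 and 0.939). Csf2ra was most like Sh2b3, an adaptor that restrains JAK2 (0.977), and Pik3cd, a kinase subunit (0.968). Csf2rb was most like Ifnar2 (0.967) and Mpo (0.96), 2 genes whose female libraries also all lay above the male ones. Il6st was most like Myb (0.974) and Cd79b (0.937), and Il6ra most like Stat5b (0.918) and F13a1, a monocyte lineage gene (0.909). Csf3r and Csf2rb2 had no gene above 0.896 and 0.872, which were Shc1 and Pias1; Ccnd2 and Plcg2 came next with 0.870 and 0.871.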

How the data were processed

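Libraries were made by BRB-seq, per the labels' protocols: each sample was reverse transcribed with a barcoded oligo-dT primer, samples were pooled and amplified, and read 1 carried a molecular identifier. The submitters' processing notes name, without roles, the builds GRCm38 and GRCh38, featureCounts 2.0.1, HISAT2 2.2.1, Trim Galore 0.6.7, UMI-tools and DESeq2. The authors deposited raw counts per gene, whole numbers without normalisation, per the file headers and values. No source used here says whether molecular identifiers were collapsed or strand was used. Binomial intervals cover counting error only, since PCR copies may be among the counts.

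Genes were matched by identifier to GENCODE M21 (21606 of 21606). With edgeR 4.0.16 in R 4.3.3, filterByExpr by sex (minimum count 10, minimum total 15) kept 8460 genes. The male minus female contrast was tested after TMM scaling with the quasi-likelihood F test without covariates, Benjamini-Hochberg adjusted at 0.05 over all tested genes. CPM use TMM library sizes of the kept genes. Standard errors are fold changes over the square root of F. The alternatives were other scalings and filters, DESeq2 1.42.0, limma-voom (limma 3.58.1), a replicate block, and each library left out. On simulated male minus female data of 8348 genes, true log2 changes of 0.5, 1 and 2 were recovered in 24.2%, 83.8% and 100% of cases. No library was a copy of another of its sex (chi-square per degree of freedom 1.98 to 4.09).

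The members and gene lists were chosen with earlier results of these data known. Named genes are all 8 receptors, the genes past the threshold of each pathway list or else its 2 most abundant, and the 2 genes most like each receptor. Kit, Flt3, Jak2, Spi1, Socs3, Cish, Csf1, Il6, Lif, Mpo, Ltf, Cd3d, Nkg7 and the single markers past the test were added after their values were seen, as were those of the closing section.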

Additional observations from a re-analysis of the deposited data

How the results depend on the processing

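The count of receptors lower in males was 0, and it was 1 with upper-quartile scaling, library-size scaling and the replicate block (Csf2rb in each), 2 with no low-count filter (Csf2rb and Il6ra), and 0 to 2 when single libraries were left out (2 without male replicate 1). No alternative called a receptor higher in males. All 8 fold changes lay below 0 in 10 of 14 alternatives and 7 of 8 in the other 4. The reversed ones were small: left-out libraries gave -0.13 to 0.022 for Csf3r (0.0068 without female replicate 1, 0.0085 without female replicate 3, 0.022 without male replicate 3) and -0.13 to 0.053 for Il3ra (0.053 without male replicate 2). Over all genes, 36 were higher and 13 lower in males. These counts were 81 and 35 with no low-count filter and 56 and 22 with the replicate block, lower counts were 8 by DESeq2 and 8 by limma-voom, and single libraries left out gave 19 to 337 higher (337 without male replicate 1, 19 without male replicate 3) and 4 to 78 lower (78 and 4 without these, and 8 without female replicate 2). With library-size scaling 23 were lower and the share of calls higher in males was 55.8% in place of 73.5%. The log2 difference of the ratio of Csf2rb2 to Csf2rb was 0.15 and ran from -0.21 to 0.43 with single libraries left out, reversing to -0.21 without male replicate 1 and -0.08 without female replicate 3; those of the other 4 ratios kept their sign, and the replicate block and a pseudocount of 1 CPM reversed none. The cause of these changes was not tested. No neighbouring pair in the order of levels passed the adjusted threshold over 6 libraries, per kb or with a library left out; with a library left out the exact test could not reach it. No label says that the same replicate numbers pair the samples. Deviations from the group means correlated at 0.03, 0.03 and 0.05 between same-numbered libraries, and each library correlated best with its own number. Values this small, from 3 libraries per sex, cannot decide whether samples were paired. With the replicate block the adjusted p of Csf2rb was 0.0429 in edgeR. At 5 to 22 counts per library, Csf2rb2 allows only large differences to be seen.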

Other observations

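Around the receptors, 14 of the 73 tested pathway genes had sexes that did not overlap, 6 with all males above and 8 with all females above, where 7.57% and 8.03% of all tested genes did, and none passed the test. The genes given here were chosen after their values were seen. Cebpd, a C/EBP factor of granulocyte and monocyte cells, had 79.7, 82.6 and 78.5 CPM in females and 101, 145 and 127 CPM in males, all males above all females, and its log2 fold change of 0.61 ± 0.15 had an adjusted p = 0.0527 in edgeR. Ifnar2, a chain of the type I interferon receptor, had 129, 125 and 137 CPM in females and 107, 86.5 and 102 CPM in males (log2 fold change -0.39 ± 0.13, adjusted p = 0.246 in edgeR). Flt3, a receptor of early lymphoid and dendritic progenitors, had 78.9, 75.9 and 71.6 CPM in females and 104, 99.8 and 90.4 CPM in males (0.37 ± 0.14, adjusted p = 0.277 in edgeR), again with no overlap, whereas Kit overlapped, with 67.6, 84.0 and 67.0 CPM in females and 99.0, 43.2 and 59.0 CPM in males.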
